A study of Homo sapiens with 16 samples.

Results

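The genes described are YAP1 and WWTR1, the 2 coactivators of the Hippo pathway, the 4 TEAD transcription factors TEAD1 to TEAD4, and 4 of their widely used target genes, CTGF, CYR61, ANKRD1 and AMOTL2. They were chosen by name, with earlier results of these data known, and are 10 of the 56832 genes counted. All 10 passed the filter on low counts, as did 23100 genes in all. The libraries came from H69 and H69M, human small cell lung cancer lines grown in RPMI with serum. Each line carried an shRNA against EIF6 (sheIF6), whose product binds the large ribosomal subunit, or a non-targeting control shRNA (shNTC), and RNA was taken from either the cytoplasmic lysate or from the polysomal fractions of a sucrose gradient. The 8 groups are therefore H69 shNTC, H69 sheIF6, H69M shNTC and H69M sheIF6, each as cytoplasmic and as polysomal RNA, with 2 libraries a group and 16 in all. The labels do not say how H69M was derived from or relates to H69, and 1 shRNA against EIF6 is named, so no difference between shNTC and sheIF6 has a second hairpin behind it. Nor do they say that the 2 libraries of a group are separate cultures, so every p-value measures the spread between these libraries, which may be technical.

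YAP1 and WWTR1 (whose protein is called TAZ) do not bind DNA themselves. The kinases of the Hippo pathway phosphorylate them and keep them in the cytoplasm, and unphosphorylated YAP and TAZ enter the nucleus and bind TEAD proteins, which recognise the GGAATG motif. The pathway is known for control of organ size and of adherent growth, and in small cell lung cancer YAP1 is known to be low in neuroendocrine lines and present in a non-neuroendocrine subset. The counts measure RNA only, so neither phosphorylation nor nuclear entry was read here.

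The promoters of CTGF and ANKRD1 are printed because both genes are classical YAP-TEAD targets and their upstream sequence holds repeated TEAD motifs. RefSeq promoters (GRCh38.p14) were matched for 7 of the 10 genes, and both strands of the 250 bases before the RefSeq transcript start were searched for GGAATG and for the AP-1 motif TGANTCA, which do not overlap in the windows shown. Capitals mark these motifs. The CTGF stretch lies at chr6:131951374-131951622 on the minus strand, from 250 to 2 bases before the start, and the ANKRD1 stretch at chr10:90921276-90921337 on the minus strand, from 250 to 189 bases before it.
CTGF: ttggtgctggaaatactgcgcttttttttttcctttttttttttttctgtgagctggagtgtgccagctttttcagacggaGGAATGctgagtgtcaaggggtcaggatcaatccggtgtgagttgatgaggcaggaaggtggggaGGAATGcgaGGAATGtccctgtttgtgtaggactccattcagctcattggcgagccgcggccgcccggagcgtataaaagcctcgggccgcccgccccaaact
ANKRD1: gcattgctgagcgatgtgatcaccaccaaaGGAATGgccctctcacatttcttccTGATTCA
CTGF held 3 GGAATG motifs, the nearest ending 90 bases before the start. ANKRD1 held 2, of which 1 is in the stretch shown and the other lies 128 to 123 bases before the RefSeq start, and its AP-1 motif stands at 195 to 189. That RefSeq start lies 189 bases inside the ANKRD1 gene as GENCODE draws it, so the motif at 128 to 123 is within the GENCODE gene, and the last base of the stretch shown is the first GENCODE exon base. YAP1 held 1 GGAATG motif, and TEAD2, TEAD3 and AMOTL2 held none in this window. The WWTR1 window held none either, but its RefSeq start lies 33441 bases inside the GENCODE gene, so the sequence before the GENCODE start was not searched. Of 35116 RefSeq promoters of the same length, 11.9% held at least 1 GGAATG, 0.94% at least 2 and 0.0826% at least 3, while 6.57% held TGANTCA. A match is a string of letters, and binding of TEAD was not measured.

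Library totals ran from 36005326 to 87269772 counts. EIF6 itself was lower in both sheIF6 libraries than in both shNTC libraries of the same line and fraction, though in no setting past the adjusted limit. Neuroendocrine markers, which define most small cell lung cancer lines, summed to 2044 to 4160 CPM (counts scaled to library size) in H69, with none of the 10 under 1 CPM, and to 142 to 639 CPM in H69M, with up to 5 of 10 under 1 CPM. NCAM1 alone stood at 197 to 274 CPM in H69 and 112 to 240.2 CPM in H69M, and the other 9 summed to 1770 to 3928 CPM and 19.2 to 433 CPM. Markers of non-neuroendocrine small cell lung cancer summed to 186 to 388 CPM in H69 and 3808 to 6120 CPM in H69M, and 5 fibroblast markers to 115 to 511 and 10067 to 38298 CPM. Immune markers stayed at or under 1.46 CPM in sum and endothelial markers at or under 27.0 CPM. The neuroendocrine, non-neuroendocrine and fibroblast sums did not overlap between the lines, so they go with any line difference below. Their part in it was not tested.

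Both coactivators were high in H69M and nearly unread in H69. YAP1 (chr11:102110461-102233423, GRCh38, plus strand) stood at 273 and 245 CPM in the H69M shNTC cytoplasmic libraries and at 262 and 196 CPM in the polysomal ones. In H69 shNTC it had 24 and 0 reads in cytoplasmic RNA and no read in either polysomal library. The lines did not overlap, and 1 of the 4 H69 control libraries held every YAP1 read seen there. The mean of 259 ± 20.2 CPM (SD, n = 2) in H69M cytoplasm was 1106-fold that of H69 (log2 difference 10.08, SE 0.889, adjusted p = 1.64e-05 by edgeR's quasi-likelihood test with Benjamini-Hochberg adjustment). In polysomal RNA, against a floor of 3 counts over the H69 group, YAP1 was at least 5981-fold higher in H69M (adjusted p = 1.08e-05). In bulk RNA fewer cells that express a gene and less RNA per cell cannot be told apart.

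WWTR1 (chr3:149517235-149736714, minus strand) stood at 105 and 106 CPM in H69M shNTC cytoplasm and at 93.7 and 68.5 CPM on polysomes. H69 shNTC had 132 and 19 WWTR1 reads in cytoplasm and 8 and 0 on polysomes, all far under the H69M libraries. The log2 differences were 6.15 (SE 0.911, adjusted p = 0.00040) and 9.59 (SE 1.14, adjusted p = 9.14e-05). Per kilobase of exon, YAP1 exceeded WWTR1 in all 8 H69M libraries, by 1.91 to 3.83 times, and the lowest ratios were those of the 2 sheIF6 cytoplasmic libraries, at 1.91 and 2.53.

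**Figure D1:**
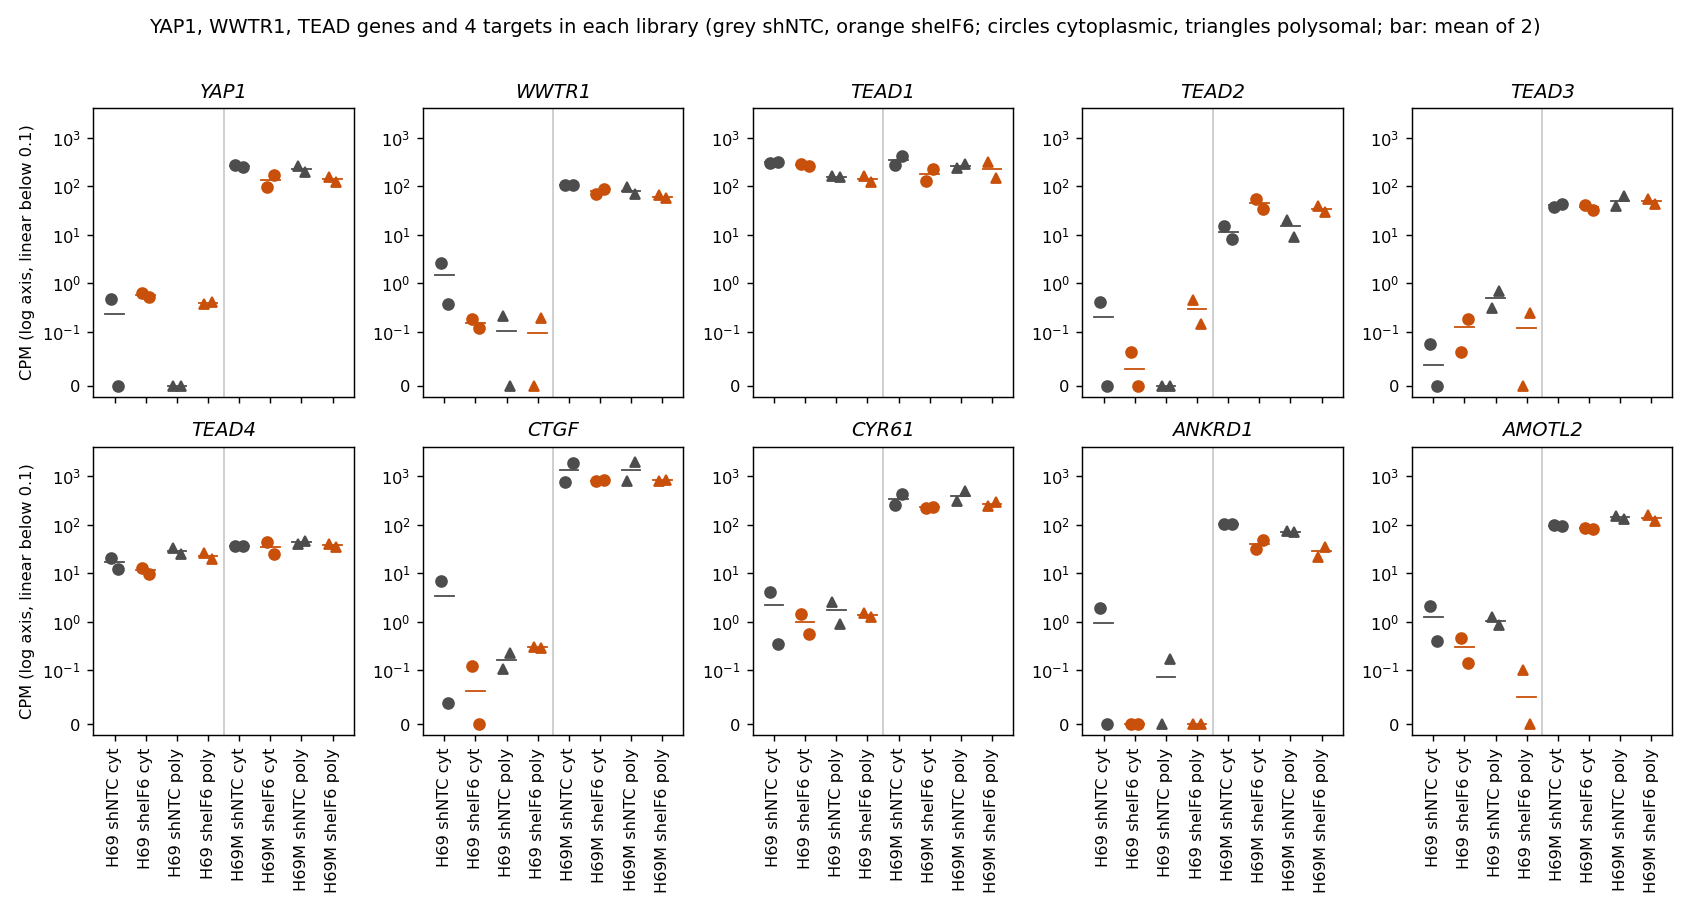
Level of each of the 10 genes in each of the 16 libraries, in CPM on a log axis, by group. Points are single libraries and points at the bottom are libraries with no read. TEAD1 overlaps between the lines in control cytoplasmic and sheIF6 polysomal RNA, lies higher in H69M in control polysomal RNA and lies lower in H69M in sheIF6 cytoplasmic RNA. TEAD4 lies higher in H69M by less than the other 8 genes, which lie far higher in the 8 H69M libraries.

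The 4 TEAD genes did not move as 1 family. TEAD1 (chr11:12674591-12944483, plus strand) stood at 305 and 320 CPM in H69 shNTC cytoplasm and at 270 and 409 CPM in H69M. The H69M libraries lay on both sides of the H69 ones, and the log2 difference was 0.12 (SE 0.350, 95% interval -0.69 to 0.93, adjusted p = 0.838). On polysomes TEAD1 stood at 160 and 154 CPM in H69 and at 235 and 280 CPM in H69M, which did not overlap, but the difference of 0.72 (SE 0.352, adjusted p = 0.133) did not pass the limit.

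TEAD4 (chr12:2959330-3040673, plus strand) was the other TEAD present in H69. It stood at 20.9 and 12.5 CPM in H69 shNTC cytoplasm against 36.2 and 35.8 CPM in H69M (log2 difference 1.11, SE 0.328, adjusted p = 0.0219). That call was lost without the H69 shNTC cytoplasmic library 2 (0.79, adjusted p = 0.179) and without either H69M one (1.10, adjusted p = 0.071 without library 1, and 1.12, adjusted p = 0.061 without library 2). On polysomes it stood at 32.9 and 24.4 CPM against 40.2 and 46.6 CPM, a difference of 0.60 (SE 0.325, adjusted p = 0.172).

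TEAD2 and TEAD3 were almost unread in H69. TEAD2 (chr19:49340595-49362457, minus strand) had 21 and 0 reads in H69 shNTC cytoplasm and none on polysomes. In H69M shNTC it stood at 15.0 and 7.96 CPM in cytoplasm and at 20.4 and 9.17 CPM on polysomes. The cytoplasmic log2 difference was 5.78 (SE 1.08, adjusted p = 0.00225), and on polysomes TEAD2 was at least 386-fold higher. Per kilobase TEAD2 had the lowest level of the 10 genes in H69M shNTC cytoplasm. TEAD3 (chr6:35473597-35497076, minus strand) had 4 and 0 reads in H69 shNTC cytoplasm and 12 and 28 on polysomes. It stood at 37.3 and 42.5 CPM in H69M cytoplasm and at 38.9 and 62.2 CPM on polysomes, and the log2 differences were 9.89 (SE 0.987, adjusted p = 1.97e-05) and 6.63 (SE 0.793, adjusted p = 7.35e-05).

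The makeup of the TEAD RNA therefore differed between the lines. As a share of the 4 TEAD levels in CPM per kilobase, TEAD1 took 51.6% to 85.0% of the total in the 8 H69 libraries (median 66.9%) and TEAD4 14.7% to 48.1% (median 32.5%), while TEAD2 and TEAD3 reached at most 0.552% and 0.878%. In the 8 H69M libraries TEAD1 took 19.4% to 55.1% (median 38.1%), TEAD4 19.8% to 30.8% (27.6%), TEAD3 19.3% to 28.6% (21.2%) and TEAD2 3.71% to 28.6% (14.1%). The summed TEAD level was 20.5 to 39.0 CPM per kilobase in H69 and 53.3 to 79.2 in H69M, without overlap.

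**Figure D2:**
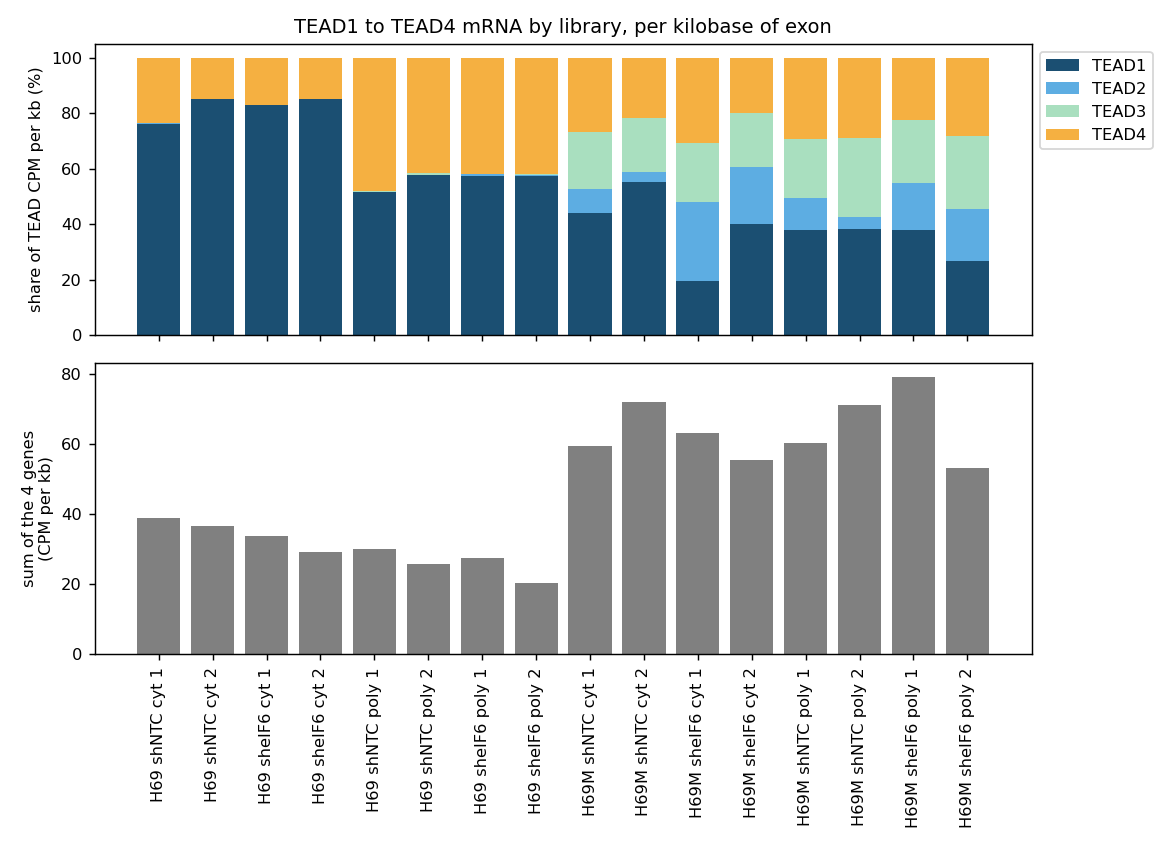
Share of TEAD1, TEAD2, TEAD3 and TEAD4 in the summed TEAD level of each library, in percent of CPM per kilobase of exon. The 8 H69 libraries hold TEAD1 and TEAD4 with almost no other TEAD, the 8 H69M libraries hold all 4, and TEAD2 takes a larger share in the H69M sheIF6 libraries than in the H69M shNTC ones.

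All 4 target genes were high in H69M. CTGF (chr6:131948176-131951373, minus strand), a secreted matrix protein, stood at 763 and 1891 CPM in H69M shNTC cytoplasm and at 775 and 1919.8 CPM on polysomes. In H69 shNTC it had 353 and 2 reads in cytoplasm and 4 and 9 on polysomes. The lines did not overlap, and in each H69M control group library 2 stood far above library 1. The log2 differences were 8.58 (SE 1.54, adjusted p = 0.00181) and 12.97 (SE 1.89, adjusted p = 0.000477).

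CYR61 (chr1:85580761-85583962, plus strand), a secreted matrix protein of the same family, stood at 256 and 420 CPM in H69M shNTC cytoplasm and at 300.1 and 487 CPM on polysomes. In H69 shNTC it had 212 and 17 reads, and 96 and 37 reads. It was the target with the most even signal in H69, at 17 reads or more in all 8 libraries. Its log2 differences were 7.23 (SE 0.991, adjusted p = 0.000249) and 7.84 (SE 1.02, adjusted p = 0.000183).

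ANKRD1 (chr10:90912096-90921276, minus strand), a nuclear ankyrin repeat protein, stood at 105 and 103 CPM in H69M shNTC cytoplasm and at 74.0 and 70.2 CPM on polysomes. It had 97 and 0 reads in H69 shNTC cytoplasm and 0 and 7 on polysomes. AMOTL2 (chr3:134355874-134375479, minus strand), an angiomotin that binds YAP and is also a target, stood at 98.9 and 92.0 CPM and at 150.4 and 131 CPM in H69M, against 107 and 20 reads and 48 and 34 reads in H69. The log2 differences were 6.77 (SE 1.36, adjusted p = 0.00531) and 9.62 (SE 1.65, adjusted p = 0.00227) for ANKRD1, and 6.26 (SE 0.715, adjusted p = 5.6e-05) and 7.06 (SE 0.745, adjusted p = 3.23e-05) for AMOTL2.

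In H69M shNTC cytoplasm the order of levels per kilobase began with CTGF at 567 ± 341 CPM per kilobase and CYR61 at 138 ± 47.4 (SD, n = 2). ANKRD1 at 52.5 ± 0.957, YAP1 at 41.1 ± 3.2 and TEAD1 at 33.0 ± 9.55 came next, and YAP1 and TEAD1 were not separated beyond their spread. TEAD4 at 15.8 ± 0.133, AMOTL2 close to it, TEAD3 at 13.1 ± 1.2 and WWTR1 at 12.5 ± 0.0854 followed, and AMOTL2 and TEAD4 were not separated. TEAD2 at 3.86 ± 1.67 was last. In H69 shNTC cytoplasm TEAD1 led at 30.4 ± 1.06, TEAD4 followed at 7.34 ± 2.62 and the other 8 genes had means under 1.5.

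Over the control libraries 9 of the 10 genes were called higher in H69M in cytoplasm, beside 16.2% of all genes tested, and 8 of 10 on polysomes, beside 18.4%. The median log2 difference of the 10 in cytoplasm was 6.51, against -0.01 over all genes. Both libraries of H69M lay above both of H69 for 9 genes in cytoplasm and all 10 on polysomes, beside 33.5% and 33.1% of all genes. In the sheIF6 libraries 9 and 8 genes were called higher in H69M, beside 16.9% and 19.0%. TEAD1 did not pass in either (-0.62, adjusted p = 0.205, and 0.68, adjusted p = 0.148), although in sheIF6 cytoplasm both H69M libraries, at 126 and 229 CPM, lay below both of H69, at 287 and 256 CPM, and TEAD4 passed in cytoplasm (1.60, adjusted p = 0.00298) but not on polysomes (0.70, adjusted p = 0.11). TEAD1 passed on polysomes without the H69M sheIF6 polysomal library 2 (1.12, adjusted p = 0.0304).

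Most of the reads of these genes in H69 cytoplasmic controls came from 1 library. H69 shNTC cytoplasmic library 1 held 24 of 24 YAP1 reads, 21 of 21 TEAD2 reads, 97 of 97 ANKRD1 reads, 353 of 355 CTGF reads and 132 of 151 WWTR1 reads of its group. In the same library 17 genes high in H69M stood at a median of 0.11% of their level in H69M, while their median was 0 in the 7 other H69 libraries. These genes were chosen for under 0.05 CPM in every H69 sheIF6 library, so the low values in those libraries were fixed by the choice. A second set of 19 genes high in H69M, chosen after seeing the data, summed to 0.184% there and to 0.0036% to 0.0509% elsewhere. It was chosen for under 0.05 CPM in both H69 shNTC libraries numbered 2, where the low sums were likewise fixed. As a share of the mean H69M level, the members in that library stood at 0.177% for TEAD3, 0.247% for YAP1, 0.64% for CTGF, 1.35% for CYR61, 1.57% for TEAD2, 1.82% for AMOTL2, 3.11% for ANKRD1 and 3.17% for WWTR1, so in that library TEAD3 and YAP1 lay near those sets and the other 6 above them. In the H69 sheIF6 libraries YAP1 stood at 0.199% to 0.325% and TEAD3 at 0% to 0.553%, where the second set summed to 0.0151% to 0.0509%. In H69 shNTC polysomal RNA YAP1 had no read, and TEAD3 stood at 0.716% and 1.57%. The part of reads from the other line in these values was not tested.

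Without H69 shNTC cytoplasmic library 1 the 9 calls in cytoplasm stood. The log2 differences were then 8.11 for WWTR1, 9.95 for CYR61, 14.92 for CTGF and 7.89 for AMOTL2, each larger than with it. YAP1, TEAD2, TEAD3 and ANKRD1 had no read in the remaining library, so their fitted values of 16.56, 12.07, 13.86 and 15.24 are no measure of size. In the other direction, 99 genes high in H69 were chosen as under 1% of their H69 mean in the H69M library with the least. They had medians of 0.309% to 1.13% of their H69 level in the H69M libraries numbered 1, and 2.19% to 11.3% in those numbered 2. That choice favours low values in some H69M libraries, and its part in the gap between library numbers was not tested. The effect on TEAD1 and TEAD4 was not tested either.

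**Figure D3:**
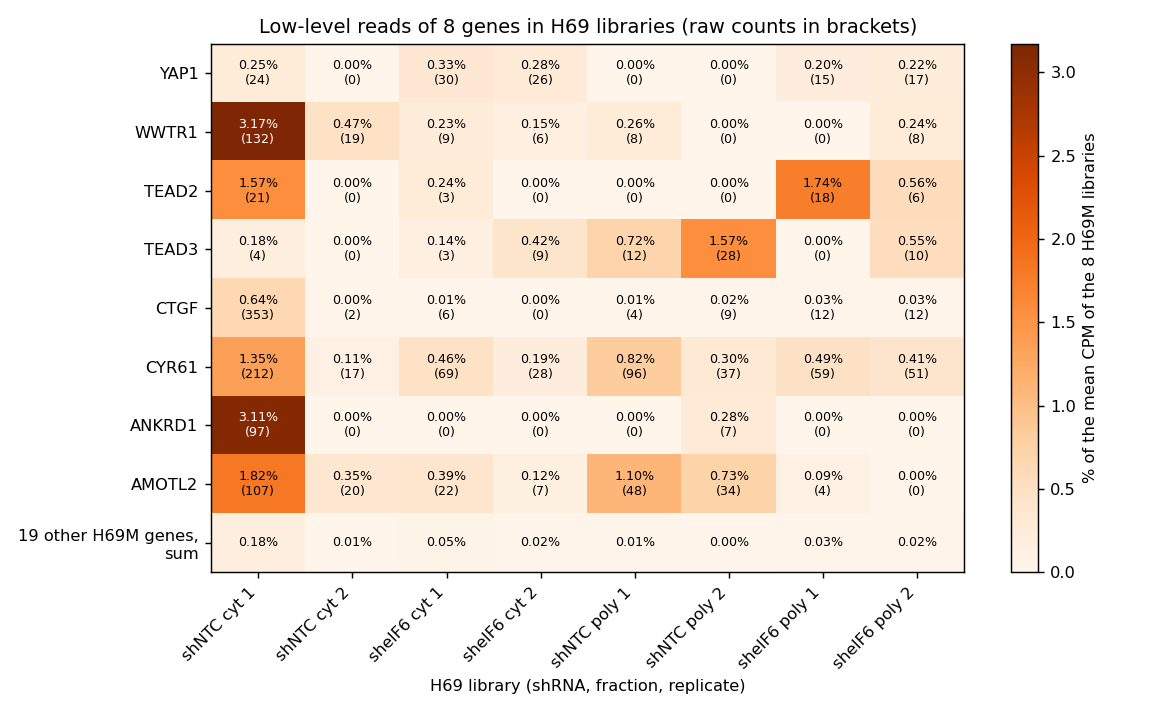
Reads of the 8 genes that are low in H69 in each H69 library, as percent of the gene's mean CPM over the 8 H69M libraries, with raw counts in brackets and the sum of 19 other H69M genes in the last line. H69 shNTC cytoplasmic library 1 lies above the other 7 libraries for WWTR1, CTGF, CYR61, ANKRD1 and AMOTL2.

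The upstream genes of the pathway differed less evenly between the lines. Of 22 Hippo regulators 21 were tested, and in control cytoplasm 9 were called higher in H69M and 2 lower, beside 16.2% of all genes called higher and 14.1% called lower (median log2 difference 0.54, against -0.01 over all genes). LATS2, a kinase that phosphorylates YAP and is itself a target, differed most, with 0.127 CPM in H69 and 37.8 CPM in H69M (log2 difference 8.18, SE 0.92), and PTPN14, a phosphatase that binds YAP, stood at 0.776 and 179 CPM (7.84, SE 0.65). Both genes also stand in the list of other YAP and TAZ targets below and count in both lists. TAOK3 (3.06, SE 0.35) and STK3 (2.83, SE 0.51), kinases near the top of the cascade, were higher too. WWC1, a scaffold that activates LATS kinases, was lower, at 8.72 CPM against 33.8 CPM (-1.95, SE 0.28), as was AMOTL1 (-0.73, SE 0.24), whose call was lost without any 1 of the 4 libraries (adjusted p = 0.0673 to 0.174). On polysomes 10 of 21 were called higher and 1, WWC1, lower, beside 18.4% and 15.6% of all genes. LATS1, the kinase paired with LATS2, did not pass (-0.37, SE 0.25, adjusted p = 0.278).

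Most other published YAP and TAZ targets were higher in H69M. Of 18 tested, 14 were called higher and none lower in each fraction of the control libraries, beside 16.2% of all genes called higher in cytoplasm and 18.4% on polysomes, and 1 of the 18 log2 differences was negative in each. The median log2 difference was 5.10 in cytoplasm, against -0.01 over all genes. In the sheIF6 libraries 13 were called higher in cytoplasm and 14 on polysomes, beside 16.9% and 19.0% of all genes, and 4 and 3 differences were negative. GADD45A, a growth arrest and DNA damage gene, was called lower in H69M on sheIF6 polysomes, beside 17.3% of all genes (-2.23, SE 0.75, adjusted p = 0.0365). That call was lost without any 1 of the 4 libraries (adjusted p = 0.0857 to 0.162), when blocked by replicate number in each line (-1.60, adjusted p = 0.122) and with no filter (adjusted p = 0.108). The largest differences in cytoplasm were those of IGFBP3, with 370.6 CPM in H69M and 0.0195 CPM in H69, AXL with 209.7 and 0.439 CPM, LATS2, and CCDC80 with 142 and 0.519 CPM. FJX1, FOXF2, GADD45A and ASAP1 were not called in either fraction of the controls. Of 7 AP-1 genes, whose products bind beside TEAD at many enhancers, FOSL1 (7.42, SE 1.17), FOSL2 (3.09, SE 0.44) and JUNB (0.70, SE 0.23) were higher in H69M cytoplasm, beside 16.2% of all genes, and FOS lower (-3.33, SE 0.78), beside 14.1%, while JUN, at 109 and 92.9 CPM, did not pass (0.23, SE 0.36, adjusted p = 0.684). The JUNB call was lost without any 1 of the 4 libraries (adjusted p = 0.0731 to 0.176), with the replicate block (adjusted p = 0.0741) and on polysomes.

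**Figure D4:**
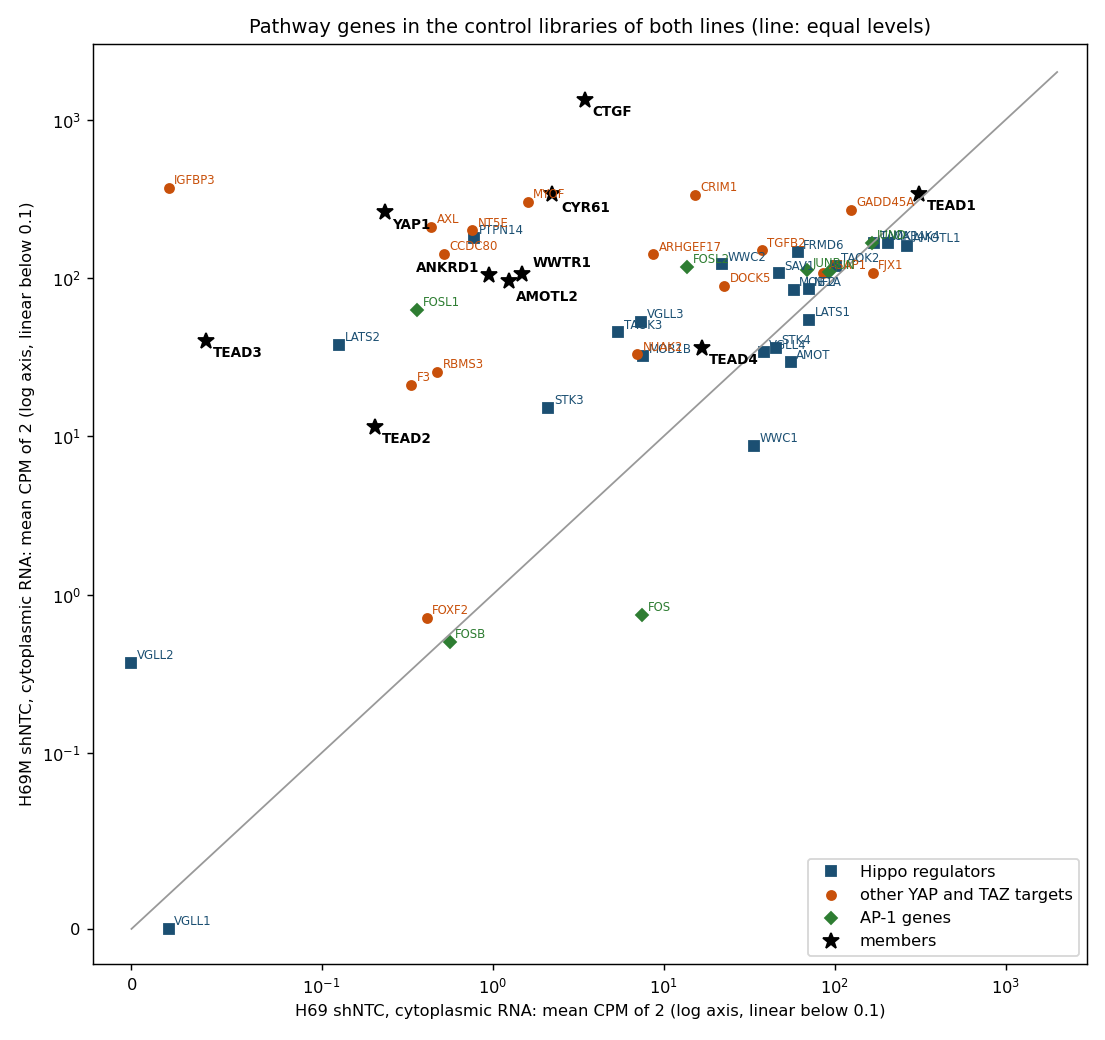
Mean level in H69 shNTC against mean level in H69M shNTC cytoplasmic RNA, in CPM on log axes, for the 10 genes, Hippo regulators, other targets and AP-1 genes. The line marks equal levels. The 4 target genes, YAP1, WWTR1, TEAD2 and TEAD3 lie far above it, with LATS2, PTPN14, IGFBP3 and AXL, and TEAD1 lies on it.

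Knockdown of EIF6 moved none of the 10 genes past the limit in any of the 4 settings by edgeR's quasi-likelihood test with Benjamini-Hochberg adjustment over all genes. Few genes were called at all, at 0.156% of those tested in H69M cytoplasm, 0.0649% in H69M polysomal RNA, 0% in H69 cytoplasm and 0.00433% in H69 polysomal RNA. At an unadjusted p under 0.05 the members numbered 2, 0, 4 and 4, beside 2537, 1882, 696 and 956 of the 23100 genes tested. DESeq2 called 0, 0, 0 and 2 of the members, beside 458, 336, 78 and 92 of all genes. In H69M 9 of the 10 log2 changes were negative in each fraction, with medians of -0.50 in cytoplasm and -0.32 on polysomes, against 0 and -0.01 over all genes. The comparisons in the 2 fractions use different libraries, but H69M shNTC libraries of the same number deviated together between the fractions (r = 0.578 across genes), so the fractions are not separate evidence. Each comparison also shares its control libraries with the line difference above.

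YAP1 stood lower in both H69M sheIF6 libraries than in both controls. It was at 96.2 and 168 CPM against 273 and 245 CPM in cytoplasm, and at 157 and 123 CPM against 262 and 196 CPM on polysomes. The log2 changes were -0.97 (SE 0.581, adjusted p = 0.57) and -0.71 (SE 0.579, adjusted p = 0.823). WWTR1 was at 67.3 and 88.8 CPM against 105 and 106 CPM in cytoplasm, and at 64.3 and 56.7 CPM against 93.7 and 68.5 CPM on polysomes (-0.43, SE 0.721, and -0.42, SE 0.721). Its groups did not overlap either.

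ANKRD1 showed the lowest share of its control level. It was at 31.2 and 48.0 CPM against 105 and 103 CPM in cytoplasm, and at 21.7 and 34.2 CPM against 74.0 and 70.2 CPM on polysomes. The sheIF6 means were 2.62-fold and 2.58-fold under the control means without overlap, and the log2 changes of -1.39 (SE 1.06, adjusted p = 0.674) and -1.37 (SE 1.06, adjusted p = 0.808) did not pass.

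CTGF and CYR61 depended on the library number of the control. CTGF was at 779 and 839 CPM in sheIF6 cytoplasm and at 803 and 829 CPM on polysomes, which is close to 763 and 775 CPM in the controls numbered 1, while the controls numbered 2 stood at 1891 and 1919.8 CPM. The log2 changes of -0.71 (SE 1.11) and -0.72 (SE 1.11) became 0.09 and 0.07 without the control library numbered 2 of the fraction. CYR61 had the same high controls, at 420 and 487 CPM, with 222 and 236 CPM in sheIF6 cytoplasm and 244 and 286 CPM on polysomes, against 256 and 300.1 CPM in the controls numbered 1. Its groups did not overlap (-0.56, SE 0.750, and -0.57, SE 0.750). AMOTL2 was at 87.2 and 82.1 CPM against 98.9 and 92.0 CPM in cytoplasm, and its polysomal groups overlapped (-0.17, SE 0.560, and -0.02, SE 0.559).

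TEAD2 was the 1 member with a positive log2 change in H69M. It stood at 54.0 and 33.8 CPM in H69M sheIF6 cytoplasm against 15.0 and 7.96 CPM in the controls, and at 39.7 and 29.3 CPM against 20.4 and 9.17 CPM on polysomes. The groups did not overlap in either fraction, and the means were 3.82-fold and 2.33-fold above those of the controls. The log2 change in cytoplasm was 1.93 (SE 0.862, adjusted p = 0.447). With the replicate number as a block in each line it was 1.97 (SE 0.408, adjusted p = 0.0476), which passed the limit, beside 268 of the 23100 genes. On polysomes it was 1.22 (SE 0.845, adjusted p = 0.767), and 1.32 with the block (adjusted p = 0.194). TEAD2 overlaps CD37 and DKKL1 on the opposite strand, and the library kit does not mark strand. CD37 stood at 1.07 and 1.14 CPM in sheIF6 cytoplasm against 0.40 and 0.105 CPM, and at 2.86 and 0.893 CPM against 0.328 and 0.151 CPM on polysomes, so it moved with TEAD2 at a far lower level. DKKL1 was at or under 0.334 CPM in all 16 libraries. The part of reads from the opposite strand in the TEAD2 values was not tested.

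The other TEAD genes were uneven. TEAD1 was at 126 and 229 CPM in H69M sheIF6 cytoplasm against 270 and 409 CPM (-0.94, SE 0.353, adjusted p = 0.366) without overlap, but at 308 and 147 CPM against 235 and 280 CPM on polysomes, with overlap (-0.18, SE 0.351). TEAD3 (-0.11, SE 0.600, and -0.05, SE 0.599) and TEAD4 (-0.06, SE 0.324, and -0.22, SE 0.324) had 95% intervals that reached at least 0.53 on either side of 0, so a change of that size was not detectable with these libraries. As a share of the TEAD level, TEAD2 took 28.6% and 20.5% in sheIF6 cytoplasm against 8.47% and 3.71% in the controls, and 16.8% and 18.5% against 11.4% and 4.32% on polysomes.

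Both sheIF6 libraries lay below both controls for 6 of the 10 genes in H69M cytoplasm (YAP1, WWTR1, TEAD1, CYR61, ANKRD1 and AMOTL2), beside 19.3% of all genes tested, and for 4 on polysomes (YAP1, WWTR1, CYR61 and ANKRD1), beside 16.7%. TEAD2 lay above in both, beside 20.4% and 15.9%. Of the 18 other targets none was called, and 17 had a negative log2 change in cytoplasm (median -0.74) and 15 on polysomes (median -0.46). Of 21 Hippo regulators none was called, with 16 and 14 negative (medians -0.46 and -0.05), and of 7 AP-1 genes none was called. At an unadjusted p under 0.05 these lists held 5, 4 and 1 genes in cytoplasm, beside 2537 of all 23100 genes. On polysomes they held 3, 4 and 2, beside 1882. DESeq2 called 1, 1 and 0 in cytoplasm, beside 458 of all genes, and 1, 0 and 0 on polysomes, beside 336. In H69 edgeR called none of the 3 lists' genes either. There 5, 3 and 0 in cytoplasm had an unadjusted p under 0.05, beside 696 of all genes, and 2, 3 and 0 on polysomes, beside 956. DESeq2 called 2 of the other targets in each fraction, beside 78 and 92 of all genes.

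**Figure D5:**
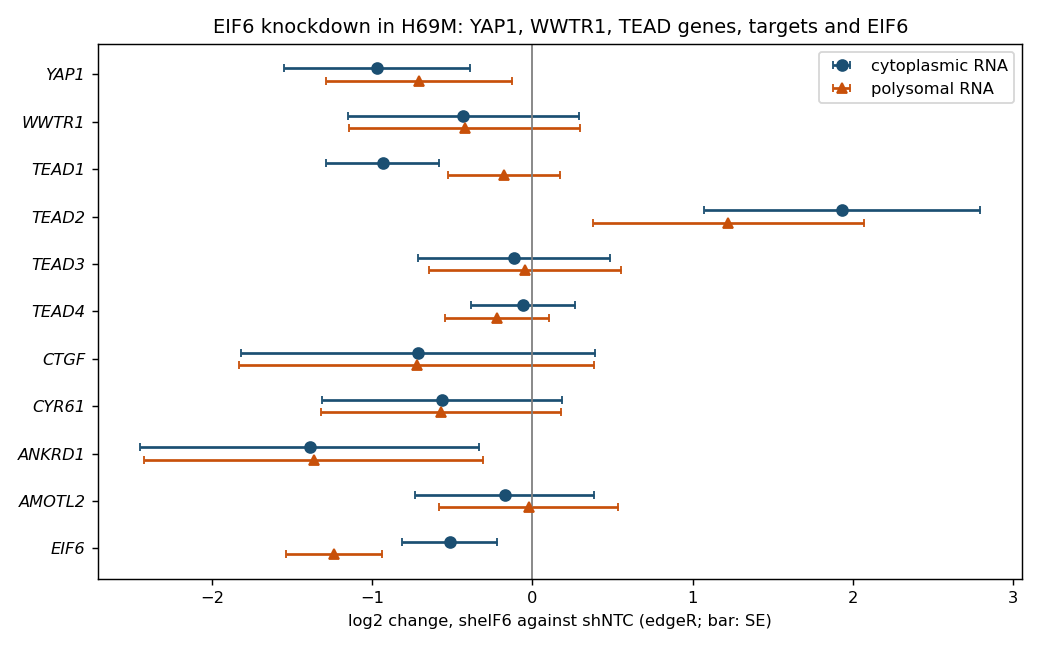
Log2 change of each of the 10 genes and EIF6 in H69M sheIF6 against H69M shNTC, in cytoplasmic and polysomal RNA, with bars of 1 SE from edgeR's fit. Of the 10 genes 9 lie under 0 in both fractions and TEAD2 lies above it.

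In H69 most members had too few reads for a firm knockdown comparison, and neither of the 2 TEAD genes with signal passed the limit. TEAD1 was at 287 and 256 CPM in sheIF6 cytoplasm against 305 and 320 CPM (-0.20, SE 0.350), and at 163 and 121 CPM against 160 and 154 CPM on polysomes (-0.14, SE 0.351). TEAD4 was at 13.1 and 9.82 CPM against 20.9 and 12.5 CPM (-0.54, SE 0.327), and at 26.3 and 19.6 CPM against 32.9 and 24.4 CPM (-0.32, SE 0.325). The TEAD4 groups overlapped in both fractions.

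YAP1 had 30 and 26 reads in H69 sheIF6 cytoplasm and 15 and 17 on polysomes, where the controls had 24 and 0, and none. On polysomes this is at least 10.4-fold higher, and it did not pass (adjusted p = 0.655 by edgeR), while DESeq2 called it (adjusted p = 0.0159). AMOTL2 had 4 and 0 reads on sheIF6 polysomes against 48 and 34 (-4.33, SE 0.985, adjusted p = 0.398). With the replicate block in each line it passed (-4.51, adjusted p = 0.026), beside 25 of the 23100 genes. By DESeq2 it passed too (-4.40, adjusted p = 0.0022), beside 92 of them. CTGF had 6 and 0 reads in sheIF6 cytoplasm against 353 and 2, and ANKRD1 none against 97 and 0, so both differences rest on H69 shNTC cytoplasmic library 1. They were called only without library 2 of that group, which leaves library 1 alone there (-6.75 and -9.47). ANKRD1 had no sheIF6 read, so -9.47 is no measure of size.

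The change with knockdown was not called different between the lines for any of the 10 genes in either fraction. Of all genes 0.0303% were called in cytoplasm and 0.00433% on polysomes. Members with an unadjusted p under 0.05 numbered 4 in cytoplasm and 2 on polysomes, beside 1138 and 1175 of all genes tested. For YAP1 the difference, H69M minus H69, was -2.24 in cytoplasm (adjusted p = 1), and it passed without H69 shNTC cytoplasmic library 1 (-8.72, adjusted p = 0.0492), which leaves that group with no YAP1 read. On polysomes AMOTL2 (4.31, adjusted p = 0.541) passed when blocked by replicate (4.48, adjusted p = 0.0372), beside 37 of the 23100 genes. AMOTL2 and YAP1 passed by DESeq2 (4.38 and -7.10, adjusted p = 0.0162 and 0.00767), beside 112 of them. H69 shNTC polysomal RNA held no YAP1 read, so -7.10 is no measure of size.

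Polysomal and cytoplasmic RNA were compared within the controls of each line. In H69M none of the 10 genes was called by edgeR, beside 4.70% of all genes, or by DESeq2, beside 2809 of the 23100 genes. None had an unadjusted p under 0.05 by edgeR, beside 4700 of the 23100 genes. AMOTL2, at 150.4 and 131 CPM on polysomes against 98.9 and 92.0 CPM (0.56, SE 0.561), and TEAD4 (0.27, SE 0.324) lay higher on polysomes. ANKRD1 (-0.53, SE 1.04) and WWTR1 (-0.38, SE 0.721) lay lower. Each of these differences was about the size of its SE or smaller. For CTGF the levels were nearly equal within a library number, 763 and 775 CPM and 1891 and 1919.8 CPM (0.02, SE 1.10).

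In H69, 2 of the 10 were called beside 11.8% of all genes, and both are low. WWTR1 was lower on polysomes (8 and 0 reads against 132 and 19, -3.81, SE 1.07, adjusted p = 0.0406), and TEAD3 higher (12 and 28 reads against 4 and 0, 3.60, SE 1.02, adjusted p = 0.0401). The number called was 0 without H69 shNTC cytoplasmic library 1, polysomal library 1 or polysomal library 2, and 5 without cytoplasmic library 2. Over all genes each of these fits called fewer than the 11.8%. With the block by replicate number 4 members were called, TEAD2 and TEAD4 being added, beside 4360 of the 23100 genes. TEAD1, the TEAD gene with the most reads, was at 160 and 154 CPM on polysomes against 305 and 320 CPM in cytoplasm (-0.99, SE 0.354, adjusted p = 0.0887), while TEAD4 was at 32.9 and 24.4 CPM against 20.9 and 12.5 CPM (0.78, SE 0.327, adjusted p = 0.142, and 0.81, adjusted p = 0.0392, with the block). TEAD1 was called with total library size scaling (-1.34, adjusted p = 0.0328), which lost TEAD3 (adjusted p = 0.0561). There 2 members were called too but not the same 2, beside 3214 of the 23100 genes. In the fit of H69 alone TEAD1 was the 1 member called (-0.94, adjusted p = 0.00711), beside 4354 of the 23100 genes. Polysomal TEAD1 lay below and polysomal TEAD4 above the cytoplasmic libraries without overlap, and TEAD4 took 48.1% and 41.3% of the TEAD level on polysomes against 23.6% and 15.0% in cytoplasm. The change of the polysomal minus cytoplasmic difference with knockdown was called for none of the 10 genes in either line, where 0% of all genes were called by edgeR. At an unadjusted p under 0.05 the members numbered 4 in H69 and 0 in H69M, beside 383 and 392 of the 23100 genes. DESeq2 called 0 members in each, beside 3 and 1 of all genes. Of 21 Hippo regulators, 3 were called in H69, all lower on polysomes, beside the 11.8%, and 4 in H69M, 2 higher and 2 lower, beside the 4.70%. The H69 count fell without shNTC cytoplasmic library 1, polysomal library 1 or polysomal library 2. With the block by replicate number it was 8, beside 4360 of the 23100 genes. The H69M count was 0 when any 1 of its 4 control libraries was left out.

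Of the genes with the pattern most like that of YAP1 over the 16 libraries, the 5 closest by Pearson correlation of log2 CPM were ALPK1 (0.992), DCBLD2 (0.989), BTN3A3 (0.988), BTN3A1 (0.987) and RBMS2 (0.987). The points share 2 lines, so the correlation is mostly the line difference, and by Spearman rank 1 of the 5, DCBLD2, was again among the closest. DCBLD2 stood at 2.97 to 13.1 CPM in H69 and 73.6 to 176 CPM in H69M, and like YAP1 it was lower in both sheIF6 libraries than in both controls in H69M cytoplasm, at 78.0 and 104 CPM against 176 and 145 CPM. Its polysomal groups overlapped, at 120.1 and 73.6 CPM against 164 and 111 CPM, where those of YAP1 did not. Over the 8 H69M libraries the 5 closest to CTGF by Pearson correlation were KRTAP10-4, RF02246, BPIFC, ANGPTL5 and CLCA4. All 5 had no read in 6 of these libraries and stood at only 0.0252 to 0.237 CPM in the 2 shNTC libraries numbered 2, so that likeness rests on a few reads and is no finding. None of these was among the 5 closest by rank, where PLPP3 led at 1. The CTGF pattern in H69M is that of the 2 shNTC libraries numbered 2 against the other 6.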

How the data were processed

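RNA-seq of 16 libraries gave the deposited table of raw counts per gene, which the authors made with STAR and HTSeq on GRCh38, per the submitters' processing notes; versions, annotation and the strand setting are not given in the sources used here. Testing used edgeR 4.0.16 (R 4.3.3): filterByExpr with a minimum count of 10, TMM scaling, and 1 quasi-likelihood fit with a mean for each of the 8 groups and 8 residual degrees of freedom. The Benjamini-Hochberg adjustment covered the 23100 genes tested, with a limit of 0.05. Levels are TMM-scaled CPM, mean ± SD of 2 libraries; levels between genes were compared per kilobase of exon (the GENCODE annotation of GRCh38). SE is the size of the log2 value divided by the square root of F. Floors of 3 counts cover counting error only.

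The 10 genes and all gene lists were chosen with earlier results of these data known. From a list, up to 4 genes in each direction were named among those past the limit with the largest change, where libraries did not overlap and the higher group averaged 100 counts or more; other list genes named with their values were chosen after their values were seen. The alternatives were RLE or total library size scaling, no filter or a stricter filter (50 counts in 2 libraries), DESeq2 1.42.0, limma-voom (limma 3.58.1), 1 line or fraction alone, a replicate block within each line or shared by both, and leaving out libraries in turn. Libraries of the same number deviated together within a line (6 pairs of H69 groups, r = 0.168 to 0.28, and 6 of H69M groups, 0.172 to 0.578) and not between lines (-0.107 to 0.0457 over 16 pairs), so blocked values stand beside results whose call they change. The fit was tested on simulated data.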

Additional observations from a re-analysis of the deposited data

How the results depend on the processing

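Over 14 alternatives the members called higher in H69M numbered 8 to 9 in control cytoplasm and 8 on control polysomes, and over 13 they numbered 9 and 8 to 9 in the sheIF6 libraries. Counts of 0 for knockdown in H69M polysomal RNA, for polysomal against cytoplasmic RNA in H69M and for the change of that difference with knockdown in both lines stood in every alternative run.

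With the replicate number as a block in each line, counts of members called changed. They went from 0 to 1 for knockdown in H69M cytoplasm, for H69 polysomal RNA and for the polysomal difference between the lines' knockdowns. For H69 polysomal against cytoplasmic RNA the count went from 2 to 4. Over all 23100 genes the calls rose from 36, 1, 1 and 2732 to 268, 25, 37 and 4360, in that order. TEAD1 in the cytoplasmic line difference was then -0.059. A block shared by both lines put TEAD3 at 0.012 in H69M polysomal knockdown and called TEAD4 on sheIF6 polysomes (0.71, adjusted p = 0.0495). The blocks changed no call of the 10 genes beyond these and those given above. DESeq2 gave 2 calls for knockdown in H69 polysomal RNA, beside 92 of the 23100 genes, and 2 for the polysomal difference between the knockdowns, beside 112. It gave 5 for H69 polysomal against cytoplasmic RNA, beside 4297. In that last comparison no filter gave 0, beside 2174 of 39512 genes, and limma-voom 0, beside 3170 of 23100. H69 alone gave 1, beside 4354 of 23100. No member call stood there without both H69 shNTC libraries numbered 1. Leaving out 1 library gave 0 to 5 there, 0 to 2 for knockdown in H69 cytoplasm and 0 to 1 for the cytoplasmic difference between the knockdowns.

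Signs of small uncalled values turned. Total library size scaling gave -0.033 for TEAD1 between lines, 0.013 for TEAD3 and 0.014 for AMOTL2 in H69M polysomal knockdown, and -0.24 for CTGF and -0.040 for CYR61 in H69M polysomal against cytoplasmic RNA. The stricter filter gave -0.0079 for CTGF there, and no filter 0.0020 for TEAD4 in H69M cytoplasmic knockdown. Leaving out 1 library in turn, TEAD1 between lines ran from -0.21 to 0.39. In knockdown TEAD1 ran from -0.37 to 0.056 on H69 polysomes, and in H69M cytoplasm TEAD3 from -0.28 to 0.031, TEAD4 from -0.53 to 0.30 and CTGF from -1.22 to 0.085. On H69M polysomes TEAD1 ran from -0.81 to 0.26, TEAD3 from -0.33 to 0.33, CTGF from -1.21 to 0.074 and AMOTL2 from -0.22 to 0.15. In H69M polysomal against cytoplasmic RNA YAP1 ran from -0.40 to 0.014, TEAD2 from -0.32 to 0.89, TEAD3 from -0.037 to 0.64, CTGF from -0.78 to 0.82 and CYR61 from -0.17 to 0.62. The cause was not tested. In the H69 libraries the 8 genes other than TEAD1 and TEAD4 had 0 to 353 reads (median 8.5), so depth limits their values there.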
